A study of Mus musculus with 8 samples.

Results

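Organic anion and cation transporters of the kidney were described in 8 mice through 9 genes chosen by name: Slc22a2, Slc22a6, Slc22a7, Slc22a8, Slc22a12, Slco1a1, Slco1a6, Slco4c1 and Slc47a1. Of these, 8 were tested among 19593 genes and unnamed transcripts, and Slco1a1 was not analysed here because no probe could be named for it. The 8 genes were covered by 12 probes, each well above background on all 8 arrays. Kidney RNA of each mouse was hybridised to 1 Agilent 1-colour array. The 4 NEKO mice (2 females and 2 males) carried Keap1-/-, Nrf2 Flox/Flox and K5-Cre, so that Keap1 was missing from the whole body and Nrf2 was deleted where the keratin 5 promoter drives Cre, in stratified epithelium such as that of the oesophagus. The 4 control littermates were Keap1+/- and Nrf2 Flox/Flox, that is, they also carried 1 disrupted copy of Keap1. K5-Cre was present in 3 of them (K1Cre, 1 female and 2 males) and absent from 1 female (K1). All mice were 8 weeks old and of a mixed 129Sv/J and C57BL/6J background. The 4 females shared a slide and the 4 males another, with both genotypes equally on each, which means that a difference by sex cannot be told apart from a difference by slide.

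The proximal tubule clears drugs, toxins and waste products, many of them bound to plasma protein and poorly filtered. Organic anions enter its cells from the blood through Oat1 (Slc22a6) and Oat3 (Slc22a8), which exchange them for dicarboxylates, and organic cations enter through Oct2 (Slc22a2) and leave into the urine through Mate1 (Slc47a1), an exchanger for protons. Oat2 (Slc22a7) carries organic anions and nucleotides, Urat1 (Slc22a12) takes urate back from the urine, Oatp4c1 (Slco4c1) takes up digoxin and thyroid hormone, and Oatp1a6 (Slco1a6) is a rodent member of the organic anion transporting polypeptides. Several of these transporters are known to differ between male and female rodents. Nrf2 is the activator of antioxidant and detoxification genes that Keap1 holds in check, and the comparison of NEKO and control kidneys asked what follows in the kidney when that check is lost.

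Promoter sequence was available from RefSeq (GRCm38.p6) for 7 of the 9 genes and not for Slc22a7 or Slc47a1. The 250 bases before the transcription start are shown for the genes on which the results below turn: Slc22a6 (chr19:8617746-8617995, plus strand), Slc22a2 (chr17:12583939-12584188, plus strand) and Slc22a12 (chr19:6543071-6543320, minus strand), in which all males lay above all females, Slc22a8 (chr19:8592932-8593181, plus strand), the neighbour of Slc22a6 and the gene whose NEKO and control values did not overlap, and Slco4c1 (chr1:96872172-96872421, minus strand), which alone held any of the motifs searched. Capitals mark those motifs.
Slc22a6: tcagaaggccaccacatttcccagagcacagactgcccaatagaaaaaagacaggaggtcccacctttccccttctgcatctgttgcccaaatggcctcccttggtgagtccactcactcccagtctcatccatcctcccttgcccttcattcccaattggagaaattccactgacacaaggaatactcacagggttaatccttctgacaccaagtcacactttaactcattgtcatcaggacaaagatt
Slc22a8: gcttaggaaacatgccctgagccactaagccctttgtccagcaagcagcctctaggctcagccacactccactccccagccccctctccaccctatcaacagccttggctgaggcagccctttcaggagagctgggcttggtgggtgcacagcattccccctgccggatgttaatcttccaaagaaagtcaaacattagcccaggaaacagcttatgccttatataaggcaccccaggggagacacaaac
Slc22a2: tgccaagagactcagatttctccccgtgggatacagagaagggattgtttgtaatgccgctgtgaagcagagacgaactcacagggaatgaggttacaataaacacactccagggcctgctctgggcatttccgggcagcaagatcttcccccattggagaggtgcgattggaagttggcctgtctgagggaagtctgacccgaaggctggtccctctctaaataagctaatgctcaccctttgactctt
Slc22a12: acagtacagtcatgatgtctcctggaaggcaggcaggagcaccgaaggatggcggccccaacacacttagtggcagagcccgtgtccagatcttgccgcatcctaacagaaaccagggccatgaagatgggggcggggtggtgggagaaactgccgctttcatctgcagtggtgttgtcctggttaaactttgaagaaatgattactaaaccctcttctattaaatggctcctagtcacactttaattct
Slco4c1: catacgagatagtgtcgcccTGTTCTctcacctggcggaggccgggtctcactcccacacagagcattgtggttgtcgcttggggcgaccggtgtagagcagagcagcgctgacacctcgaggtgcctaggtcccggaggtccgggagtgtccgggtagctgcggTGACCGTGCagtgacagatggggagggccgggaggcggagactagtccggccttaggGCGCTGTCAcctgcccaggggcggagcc

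Windows from 250 bases before to 50 bases after the start were searched on both strands for TGACNNNGC, the core of the antioxidant response element bound by Nrf2 with a small Maf protein, for AGAACA, the hexamer repeated in the androgen response element, for CAAAGTCCA of HNF4, and for the full androgen response element and the HNF1 site. Slco4c1 held the antioxidant core at positions beginning 85 and 28 bases before the start, in opposite orientations, and the reverse complement of the androgen hexamer 230 bases before it. The other windows, those of Slc22a2, Slc22a6, Slc22a8, Slc22a12, Slco1a1 and Slco1a6, held no match to any of the 5 motifs. Over all 32851 promoter windows of this length, 12.4% held the antioxidant core, 19.0% the androgen hexamer and 0.475% the HNF4 site. A match is a description of these letters and the windows leave out distant enhancers.

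Levels are log2 values of the processed signal with the array's own 75th percentile subtracted, so that 1 unit is a doubling. Each gene has its own probe, and levels of different genes are not compared. The deleted gene Keap1 served as a check of the genotype labels. It stood between 1.77 and 1.92 in the controls and between 0.06 and 0.45 in the NEKO mice, and the difference was -1.63 (standard error, SE, 0.10, limma adjusted p = 0.00459). Nqo1, a classical target of Nrf2, was at 1.24 to 2.46 in the controls and at 3.89 to 5.45 in the NEKO mice, a difference of 2.62 (SE 0.43, limma adjusted p = 0.0650). All 5 sex-linked genes examined matched the labelled sex on every array. The share of probes above background ran from 61.8% to 65.7% over the arrays. The summed level of a list is the log2 of its genes' levels added on the linear scale, so that its brightest probes weigh most. For the 18 proximal tubule markers tested it lay between 10.14 and 10.37 in the controls and between 10.21 and 10.28 in the NEKO mice. In bulk tissue, fewer cells of a type and less RNA per cell cannot be told apart.

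**Figure D1:**
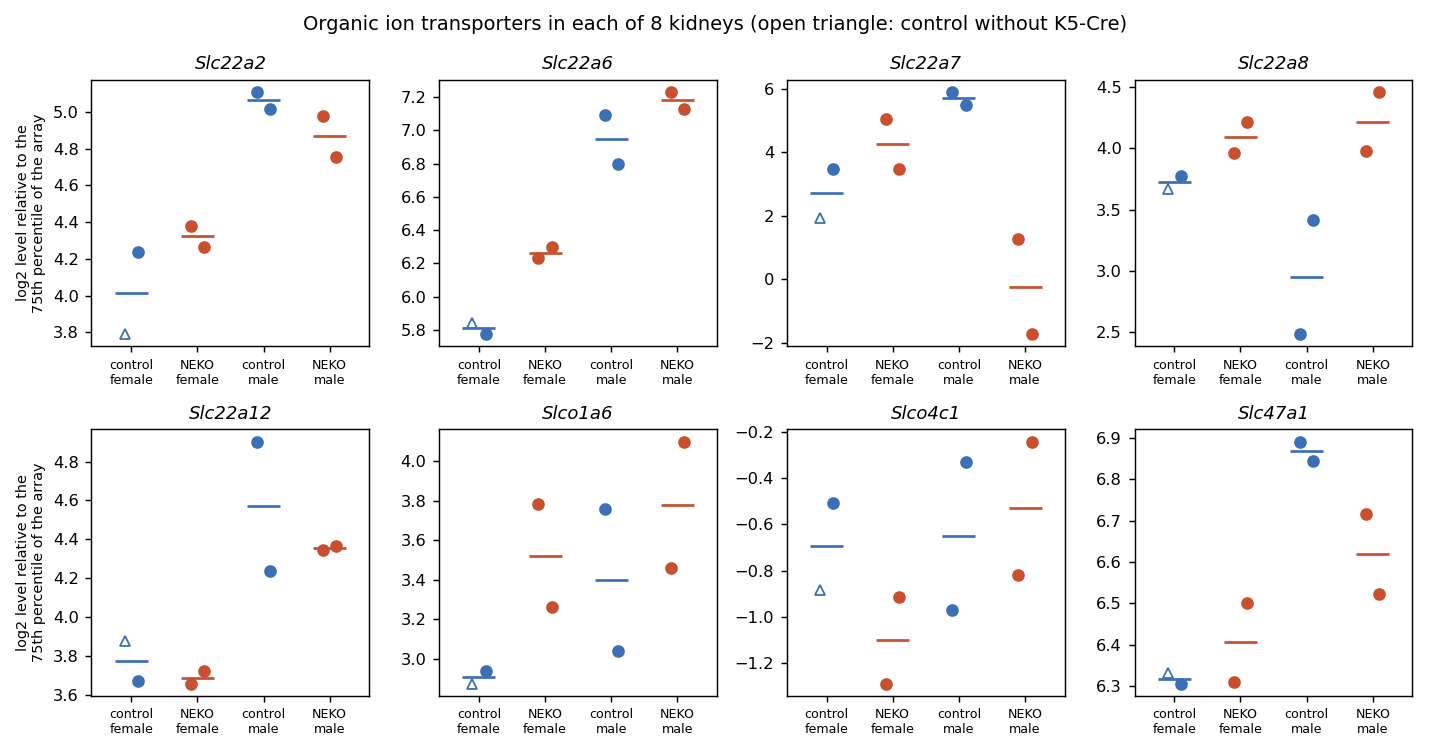
Level of each of the 8 tested transporters in each kidney (log2, less the array's 75th percentile, with a separate vertical scale in each panel), by genotype and sex. Points are single mice, lines are means of 2 mice and the open triangle is the control without K5-Cre. Slc22a6 and Slc22a2 are higher in all 4 males than in all 4 females, and Slc22a7 is lowest in the 2 NEKO males.

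No transporter passed the test between NEKO and control kidneys: 0 of 8 were called by limma at an adjusted p under 0.05, beside 0.225% of all that was tested. At an unadjusted p under 0.05 limma gave 2 of the 8, Slc22a6 and Slc22a8, beside 18.0% of all features. The unpaired comparison with unequal variances named in the methods, which has no sex term, gave 0 at the same threshold. Of 19593 features it gave 944 as higher and 1268 as lower in NEKO mice. The median log2 change of the 8 was -0.012, and that of all features was -0.031. Of the 8, 4 had a positive and 4 a negative value.

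Slc22a8, which encodes Oat3, was the transporter whose NEKO and control values did not overlap. It stood at 3.67 and 3.78 in the control females, 2.49 and 3.42 in the control males, 3.96 and 4.21 in the NEKO females and 3.98 and 4.46 in the NEKO males. All 4 NEKO kidneys thus lay above all 4 controls, and the lowest values were those of the 2 control males. NEKO mice averaged 4.15 ± 0.24 (SD, n = 4) against 3.34 ± 0.59 (SD, n = 4) for the controls, a log2 difference of 0.82 (95% interval 0.17 to 1.46), which did not pass the test across all features (limma adjusted p = 0.204). The exact permutation test (two-sided, over all splits of the mice) gave p = 0.0286, the smallest that this design allows. Groups that did not overlap made up 9.28% of all features (3.89% with the NEKO mice higher) and 1 of the 8 transporters. The other probes of Slc22a8 gave differences of 0.98 and 0.83, and their NEKO and control values overlapped. Without the control male numbered 4 in the labels, the lowest value, the difference was 0.54, and it ranged up to 0.96 when other mice were left out.

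Slc22a6, which encodes Oat1 and adjoins Slc22a8 on chromosome 19, differed less. It stood at 5.84 and 5.78 in the control females, 6.23 and 6.30 in the NEKO females, 7.09 and 6.80 in the control males and 7.23 and 7.13 in the NEKO males. Within each sex both NEKO values lay above both controls, by a gap of 0.39 in females and 0.035 in males. The log2 difference was 0.34 (95% interval 0.12 to 0.57, limma adjusted p = 0.158), and its second, dimmer probe gave 0.55. Groups of 2 against 2 that do not overlap are common, at 42.4% of features within females and 52.6% within males, beside 6 and 5 of the 8 transporters.

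Slco1a6, or Oatp1a6, stood at 2.87 and 2.94 in the control females and at 3.78 and 3.26 in the NEKO females, while the control males at 3.76 and 3.04 overlapped the NEKO males at 3.46 and 4.10. The log2 difference was 0.50, with a 95% interval of -0.019 to 1.01 (limma adjusted p = 0.290).

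Slc22a2, Slc47a1, Slc22a12 and Slco4c1 had overlapping groups and small differences. Slc22a2, or Oct2, differed by 0.056 (95% interval -0.30 to 0.41), and Slc47a1, or Mate1, by -0.080 (95% interval -0.32 to 0.16), so that for both steps of cation secretion a change of 2-fold lay outside the interval. The same was true of Slc22a12, or Urat1, at -0.15 (95% interval -0.50 to 0.20), and of Slco4c1 at -0.14 (95% interval -0.67 to 0.38). Slco4c1 stood at -0.88 and -0.51 in the control females, -0.97 and -0.33 in the control males, -1.29 and -0.91 in the NEKO females and -0.82 and -0.24 in the NEKO males, so that neither genotype nor sex separated the 8 mice. Within females both NEKO values lay below both controls, by a gap of 0.031.

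**Figure D2:**
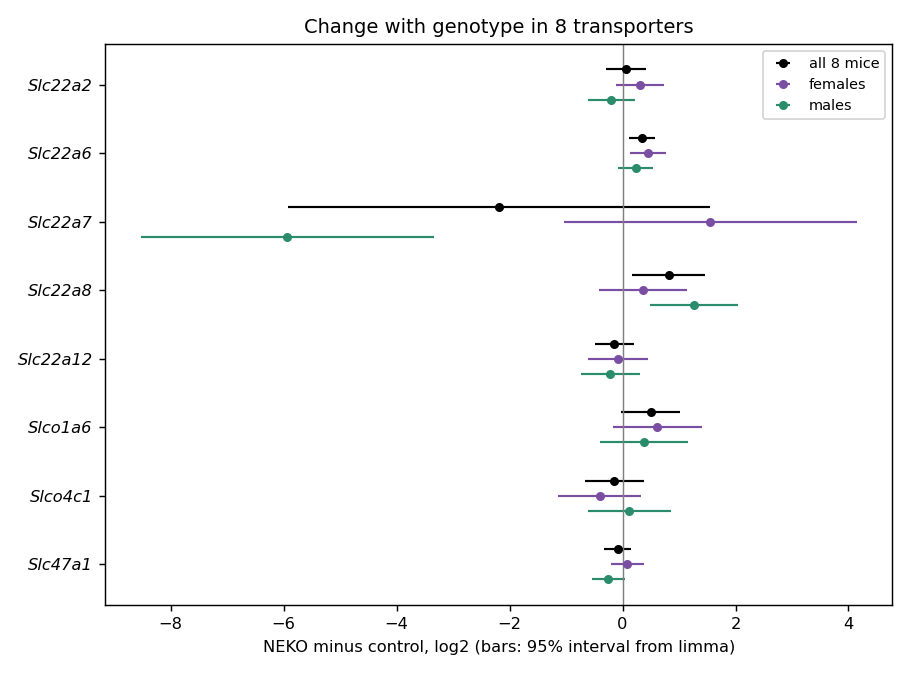
NEKO minus control on the log2 scale for the 8 tested transporters, over all mice and within each sex, with 95% intervals from limma. The interval of Slc22a7 spans zero over all mice (-5.92 to 1.54) and lies below zero in males (-8.52 to -3.34), whereas those of Slc22a2, Slc22a12 and Slc47a1 include zero over all mice and within males.

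Slc22a7, which encodes Oat2, had the widest spread of the transporters, with an SD of 2.56 over the 8 arrays beside 0.24 to 0.60 for the others. It stood at 5.90 and 5.49 in the control males and at 1.26 and -1.73 in the NEKO males. In females it stood at 1.93 (without K5-Cre) and 3.48 in the controls and at 5.04 and 3.48 in the NEKO mice. The 2 NEKO males thus had the lowest values and the 2 control males the highest, and the female values lay between them. Over all mice the log2 change was -2.19 (95% interval -5.92 to 1.54, limma adjusted p = 0.485). Single mice moved this value widely, to -0.84 without the NEKO male numbered 6, -1.36 without the control male numbered 4 and -3.25 without either the control female lacking K5-Cre or the NEKO female numbered 2.

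A model with 1 level for each combination of sex and genotype, applied within each sex after the data were seen, gave 1 of the 8 transporters as changed in males, and this was Slc22a7. The log2 change in NEKO males was -5.93 (SE 1.07, 95% interval -8.52 to -3.34, limma adjusted p = 0.0384), a geometric mean 61.0-fold lower. No second probe of Slc22a7 was available to set beside it. In this comparison 4.27% of all features were called. An unadjusted p under 0.05 from limma was found for 2 of the 8, Slc22a7 and Slc22a8, beside 19.9% of features. In females none of the 8 was called by limma, beside 0.0612% of all features, and 1 of the 8, Slc22a6, had an unadjusted p under 0.05, beside 9.15% of features. Slc22a7 differed there by 1.56 (95% interval -1.03 to 4.14, limma adjusted p = 0.669), with the lowest NEKO value above the highest control by 0.0021. The test of the difference between the sexes called 0 of the 8, beside 0.0153% of all features, and 1 of the 8 had an unadjusted p under 0.05, beside 10.5% of features. That was Slc22a7, for which the change in males minus that in females was -7.49 (SE 1.51, limma adjusted p = 0.147). The call in males rests on 2 mice of each genotype. It was lost on leaving out either control male or the NEKO male numbered 6, and was kept without the NEKO male numbered 5. Over these omissions the change lay between -7.43 and -4.44. Leaving out any female left the change at -5.93, since females enter this contrast only through the spread shared by all groups, but the call was lost there too. The call was also lost when dim probes were kept among the features tested (limma adjusted p = 0.0748).

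Slc22a8 in males differed by 1.27 (95% interval 0.49 to 2.05, limma adjusted p = 0.0949) and in females by 0.36 (95% interval -0.41 to 1.14). Without the control male numbered 7 the difference in males was 1.73 and passed the test (limma adjusted p = 0.0419), and without the control male numbered 4 it was 0.80. The difference between the sexes in this change was 0.90 (limma adjusted p = 0.569). Slc22a2 pointed up in females, at 0.31, and down in males, at -0.20, and neither value nor their difference of -0.51 passed the test (limma adjusted p = 0.552 for the difference).

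Values of other cell types and pathways moved as well in the comparison of NEKO and control males, which called 4.27% of all features. In that comparison 3 of 5 intercalated cell markers fell (Atp6v1b1, Slc26a4 and Aqp6), and the summed level of the 5 was 4.91 in both control males and between 1.95 and 3.27 in the NEKO males. That sum was also lower in NEKO females, at 4.15 to 4.22 against 5.00 to 5.30 in control females, so that all NEKO values lay below all controls, between the same groups of mice as in Slc22a8. Of 5 urothelium markers 3 rose (Upk1b, Upk2 and Upk3a), with a summed level of 0.17 to 0.83 in control males and 2.50 to 2.53 in NEKO males. Of 13 Nrf2 target genes 8 rose, with a median log2 change of 1.75. Thick ascending limb markers fell in 2 of 5 (Egf and Kcnj1), and among the macrophage markers 1 of 6 rose (Lyz2) and among the tubular injury genes 1 of 8 (Krt18). None was called among 4 distal convoluted tubule, 5 principal cell, 5 podocyte, 5 endothelial, 4 lymphocyte or 3 liver markers in the same comparison. The summed level of the podocyte markers was nevertheless lower in both sexes, at 2.43 to 3.54 in NEKO against 3.88 to 6.88 in control males and at 2.76 to 2.95 against 3.49 to 4.64 in females. The part of these in the values of Slc22a7 and Slc22a8 was not tested. The proximal tubule markers, which include the megalin gene Lrp2, had a median log2 change of -0.036 in males, beside -0.029 over all features. Of these 18 markers 1 was called, the phosphate carrier gene Slc34a3, which fell by 0.84. Their summed level was 10.34 to 10.37 in control males and 10.28 in both NEKO males.

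**Figure D3:**
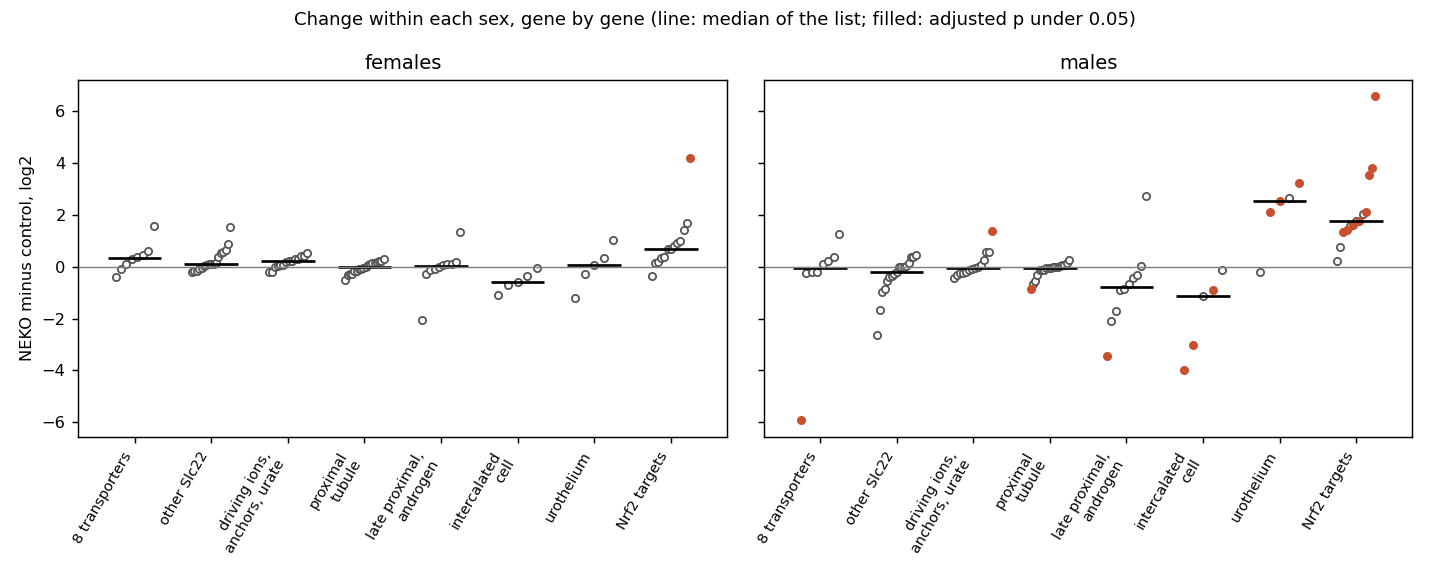
NEKO minus control on the log2 scale within females (left) and within males (right), 1 point per gene, for the 8 transporters and 7 other gene lists. Lines are medians and filled points passed the test. Slc22a7 is the lowest point among the transporters in males, at -5.93, where the median of the 18 proximal tubule markers is -0.036.

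Differences between the sexes were the more regular ones. In Slc22a6, Slc22a2, Slc22a12 and Slc47a1 all 4 males lay above all 4 females, which held for 6.76% of all features, and males and females did not overlap in either direction for 12%. The test called 1 of the 8, Slc22a6, beside 0.786% of all features. Oat1 transcript was higher in males, with a log2 difference of 1.03 (SE 0.095, limma adjusted p = 0.0171), or 2.04-fold, with means of 7.06 ± 0.19 (SD, n = 4) in males and 6.04 ± 0.26 (SD, n = 4) in females. Its dimmer probe gave 0.69 with overlapping sexes, and with the probes averaged the difference was 0.86 (limma adjusted p = 0.0538). The call was also lost, at adjusted p between 0.0518 and 0.0867, without any 1 of the controls numbered 1, 7 and 8 or of the NEKO mice numbered 2, 3 and 5, although the difference stayed between 0.95 and 1.07 whichever mouse was left out.

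Oct2 followed closely. Slc22a2 stood at 3.79 and 4.24 in the control females, 4.38 and 4.27 in the NEKO females, 5.11 and 5.02 in the control males and 4.98 and 4.75 in the NEKO males, and the difference between males and females was 0.80 (95% interval 0.45 to 1.15, limma adjusted p = 0.0649). Slc22a12 stood at 3.88 and 3.67 in the control females, 3.66 and 3.72 in the NEKO females, 4.90 and 4.24 in the control males and 4.35 and 4.37 in the NEKO males. Its difference was 0.73 (95% interval 0.38 to 1.08, limma adjusted p = 0.0711). For both genes every male lay above every female, and neither passed the test.

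Slc47a1 stood at 6.33 and 6.31 in the control females, 6.31 and 6.50 in the NEKO females, 6.89 and 6.84 in the control males and 6.71 and 6.52 in the NEKO males, a difference of 0.38 (95% interval 0.14 to 0.62, limma adjusted p = 0.106). Its second probe gave 0.31 with overlapping sexes. The exact two-sided permutation p was 0.0286 for each of these 4 genes, the smallest possible. For the other 4 transporters males and females overlapped, with differences of 0.37 in Slco1a6, 0.31 in Slco4c1, -0.32 in Slc22a8 and -0.75 in Slc22a7. None of these 4 passed the test.

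Within the controls alone 0 of the 8 were called between males and females by limma, beside 0.051% of all features, and 5 of the 8 had an unadjusted p under 0.05, beside 15.2% of features. These were Slc22a2 at 1.05, Slc22a6 at 1.14, Slc22a12 at 0.79, Slc47a1 at 0.55 and Slc22a7 at 2.99. The female without K5-Cre is among the controls compared here. Within the NEKO mice, compared after the data were seen, 1 of 8 was called, Slc22a6 at 0.92 (limma adjusted p = 0.0355), beside 1.58% of all features. Without any 1 of the NEKO mice this call was lost. Without either control female it was lost too, with the change still at 0.92, since controls enter this contrast only through the shared spread. The call was also lost with dim probes kept (limma adjusted p = 0.0735), with the probes averaged (0.141) or with array weights (0.0602). Here 4 of the 8, Slc22a2, Slc22a6, Slc22a7 and Slc22a12, had an unadjusted p under 0.05 from limma, beside 18.8% of features. The values of Slc22a2, Slc22a12 and Slc47a1 within NEKO mice were 0.54, 0.67 and 0.21, and that of Slc22a7 was -4.50 (limma adjusted p = 0.103). None of these differences between NEKO and control mice passed the interaction test, with adjusted p between 0.147 and 0.933 over all 8 transporters.

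The family of Slc22 genes held larger differences between the sexes. Of 21 other Slc22 genes 17 were tested. Slc22a3 and Slc22a20 had no kept probe, and Slc22a9 and Slc22a27 were not analysed here. In males 3 of the 17 were called higher and 0 lower, beside 0.786% of all features called by sex, here as in the lists below. The median was -0.0034 over the list and 0.0099 over all features. Slc22a28 stood between 1.10 and 2.24 in females and between 3.78 and 5.26 in males, a log2 difference of 2.86 (SE 0.34, limma adjusted p = 0.0336). Slc22a30 gave 2.59 (SE 0.30, limma adjusted p = 0.0336), and Slc22a22, a carrier of prostaglandins, 1.24 (SE 0.17, limma adjusted p = 0.0423). The lowest value was that of Slc22a29, at -2.0 (limma adjusted p = 0.0519), with every male below every female. Slc22a28, Slc22a29 and Slc22a30 are close rodent relatives, and sharing of signal between their probes was not tested. Between NEKO and control mice 0 of the 17 were called by limma, from Slc22a14 at 0.63 to Slc22a30 at -0.58, with a median of 0.023.

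**Figure D4:**
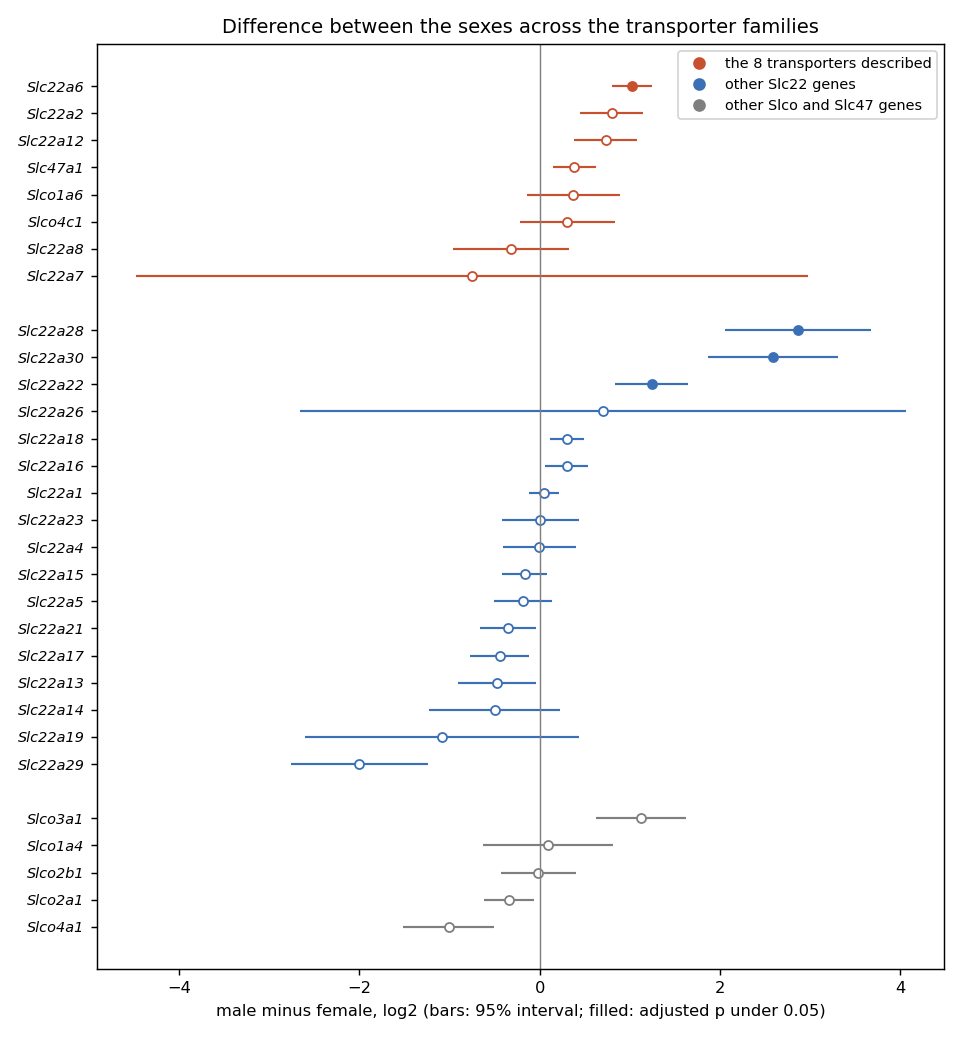
Male minus female on the log2 scale for the 8 transporters, 17 other Slc22 genes and 5 other Slco genes, with 95% intervals from limma and filled points for an adjusted p under 0.05. Slc22a6 is the filled point among the 8 at 1.03, and Slc22a28 and Slc22a30 have the largest values at 2.86 and 2.59.

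Among the other Slco and Slc47 genes 5 of 13 were tested, of which none was called by limma in either comparison. The remainder had no kept probe in 5 cases and were not analysed here in 3. By genotype the values ran from 0.24 in Slco2b1 to -0.60 in Slco1a4, and by sex from 1.12 in Slco3a1 (limma adjusted p = 0.066) to -1.01 in Slco4a1.

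Partners of these transporters were examined as 14 genes for the ions that drive them, the scaffold proteins that anchor them and other urate carriers. Between NEKO and control mice 0 of the 14 were called, with a median of 0.016 and values from 0.97 in Slc13a3 to -0.23 in Slc5a12. Slc13a3 encodes the basolateral sodium-dicarboxylate carrier that loads the cell with the dicarboxylates that Oat1 and Oat3 exchange. It stood at 4.05 and 4.01 in the control females, 4.45 and 4.70 in the NEKO females, 3.41 and 3.81 in the control males and 4.68 and 5.32 in the NEKO males, so that all NEKO values lay above all controls. It rose by 1.39 in males (SE 0.24, limma adjusted p = 0.0356), and the change over all mice of 0.97 had an adjusted p of 0.123 from limma. By sex 1 of the 14 was called, the urate and phosphate carrier gene Slc17a1, higher in males by 0.60 (limma adjusted p = 0.0468). Its neighbour Slc17a3 had the largest value, 1.30 (limma adjusted p = 0.0590), and Slc13a2 the lowest, -0.35.

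Of 17 transcriptional and hormonal regulators 14 were tested and none was called by limma by genotype, by sex or within a sex. Hnf4a, which maintains the proximal tubule programme, stood between 3.40 and 3.70 on all arrays, with a difference of 0.014 between NEKO and control mice. Prlr, the prolactin receptor gene, had the largest values of the list by genotype (1.45) and the lowest by sex (-1.82). It stood between 2.31 and 2.78 in all 4 females, at 2.15 and 2.20 in the NEKO males and at -2.45 and 0.63 in the control males. The difference in males was 3.08 (limma adjusted p = 0.129). The largest value by sex was that of Bcl6, a transcriptional repressor, at 1.2, and the lowest by genotype that of Stat5a, at -0.26.

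A further list held 10 genes of the late proximal tubule or under androgen control in mouse kidney. By genotype 0 of 10 were called, with a median of -0.39 and 9 values below zero, from 1.42 in Slc7a12 to -1.64 in Acsm3. By sex 1 of 10 was called, the transporter gene Slc7a13, higher in males by 4.66 (limma adjusted p = 0.0454), and the median was 0.65. Acsm3, a medium-chain acyl-CoA synthetase gene, stood at 6.14 and 5.35 in the control males, at 3.14 and 1.43 in the NEKO males and between -0.87 and -0.12 in the females. It fell by 3.46 in the NEKO males (SE 0.59, limma adjusted p = 0.0346) and was the 1 gene of the list called there, where the median was -0.78. Slc7a12, which is known as a female-biased gene, stood at -0.44 and 2.21 in the control males, 3.14 and 4.12 in the NEKO males and between 5.06 and 5.76 in the females. Its difference in males of 2.74 did not pass the test (limma adjusted p = 0.147). Proximal tubule markers had 0 of 18 called by genotype, with values from 0.14 in Cubn to -0.68 in Slc34a3, and 1 of 18 by sex, Ggt1, at 0.75. Their extremes by sex were Cyp2e1 at 1.98 and Slc5a1 at -0.49.

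The named genes whose levels followed Slc22a7 most closely over the 8 arrays were Mfsd2a, which encodes a carrier of lysophospholipids, Bcat1, which encodes a branched-chain amino acid transaminase, and C8a, which encodes a chain of complement component 8. After each gene was centred on its own mean, they differed from Slc22a7 by a mean absolute value of 1.02, 1.05 and 1.05 on the log2 scale, so the likeness was coarse beside the SD of 2.56 of Slc22a7. In each of them the NEKO male numbered 6 had the lowest value. The NEKO male numbered 5 was next in Mfsd2a and Bcat1, whereas in C8a both control females lay below it. Mfsd2a differed by -3.74 in males, Bcat1 by -2.84 and C8a by -2.74, and none passed the test (adjusted p of 0.109, 0.0797 and 0.211 from limma). The genes closest to Slc22a8, the transporter with the next largest SD, were Lefty1, Fndc1 and Clcf1, with mean absolute differences of 0.096, 0.11 and 0.12. In males they differed by 0.94, 1.14 and 1.17, and only Clcf1 passed the test (limma adjusted p of 0.106, 0.135 and 0.0348).

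**Figure D5:**
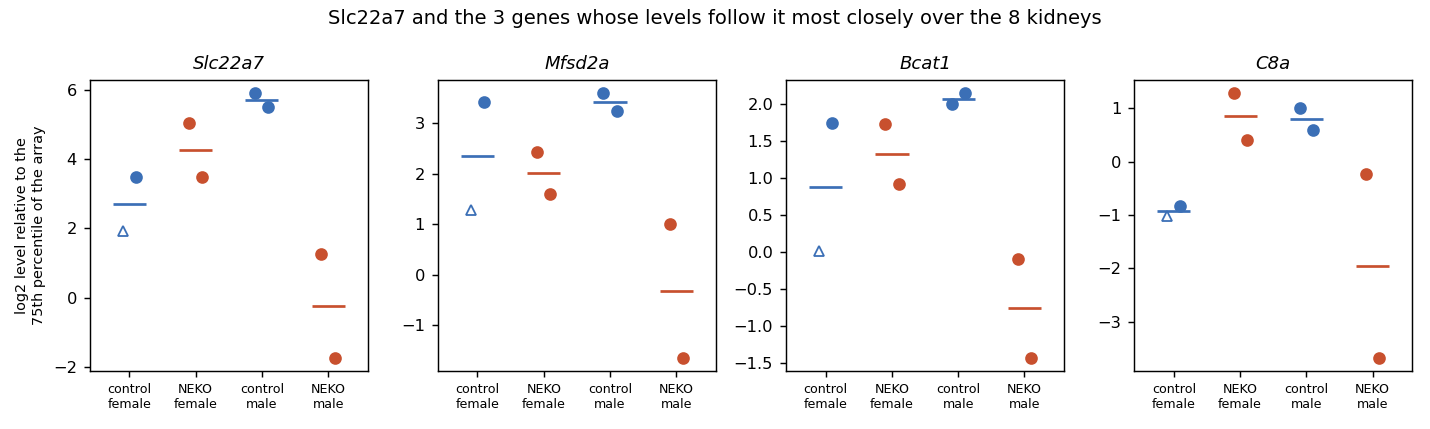
Level of Slc22a7 and of Mfsd2a, Bcat1 and C8a in each kidney (log2, less the array's 75th percentile, with a separate vertical scale in each panel), by genotype and sex. In each panel the lowest point is a NEKO male, and Slc22a7 spans 5.90 to -1.73.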

How the data were processed

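The authors deposited Agilent Feature Extraction output for each of 8 arrays, with background-subtracted processed intensity values, raw median intensity values and flags, and a matrix of log2 values centred for each probe. Of the differences between arrays in that matrix, 99.7% lay within 0.01 of those recomputed from the scanner files. The normalization behind the matrix is not given in the sources used here.

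Outlier spots (73 to 172 of 43379 for each array) were left out, replicate spots were averaged, and log2 of the processed signal was taken less the array's 75th percentile over probes other than controls. Probes were named by RefSeq accession (26690 of 41174) and kept when well above background on at least 4 arrays with a value on at least 6. The brightest kept probe stood for its gene. All 8 samples were grouped from their labels. Genotype and sex were fitted with limma 3.58.1 in R 4.3.3, and a 4-group model gave the interaction and the values within 1 sex or genotype, with Benjamini-Hochberg adjustment over all features and calls at 0.05. A missing value for 1 feature left 19592 in some comparisons. The fit by genotype was tested on simulated data with changes common to both sexes. Changes confined to 1 sex were not simulated. The array annotation is on mm9, and no position from it is printed. The number of arrays limits the precision.

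The transporters and gene lists were chosen with earlier results of these data known. Genes named beyond the transporters were the called genes of each list, its extremes, checks of labels and, for the 2 transporters with the largest SD, the 3 genes with the most similar levels. Slc22a29, Hnf4a, Lrp2, and Slc17a3 and Slc7a12 in males were also singled out after their values were seen. A member of the list of regulators is not reported here. Alternatives were normexp background correction (offset 50), quantile normalization, median scaling, no or stricter filtering, averaged probes, no sex term, trend and robust eBayes, array weights, the deposited matrix, averaging over an interaction, the unpaired comparison of the methods, K1Cre controls alone and leaving out each mouse.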

Additional observations from a re-analysis of the deposited data

Results flagged for a closer look

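Slc22a7 was singled out because both NEKO values lay above both controls in females and below both in males, with a difference of -7.488 on the log2 scale between the changes in males and females. In females the groups were 0.0021 apart, and the interaction did not pass the test (limma adjusted p = 0.147).

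Slc22a2 met the same condition with a difference of -0.506. The gaps between NEKO and control values were 0.030 in females and 0.040 in males, and the interaction had an adjusted p of 0.552 from limma. No mouse stood apart from the other 3 of its genotype by Dixon's 95% criterion in any of the 16 groups of transporter values. Each group held 2 females and 2 males, so that a difference between the sexes widened its range and made the criterion harder to reach.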

How the results depend on the processing

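No paired analysis was possible because the groups share no replicate numbers. The slide was not run as a separate block because slide and sex coincide, so that the sex term of the fit also stands for slide. The counts of called transporters by genotype, by interaction and by genotype in females were 0 under every alternative. By sex the count of 1 became 2 with normexp background correction or when averaged over an interaction, 3 with trend and robust eBayes, 4 with the unpaired comparison of the methods and 0 with that comparison adjusted, with averaged probes or with K1Cre controls only, and lay between 0 and 1 on leaving out each mouse. Within controls the 0 became 1 with normexp or with trend and robust eBayes. Features called there were 7 higher and 3 lower in males in the main fit. Normexp gave 23 and 7, and trend and robust eBayes 47 and 12. By sex within NEKO mice the 1 became 0 without a filter on dim probes (more features tested), with averaged probes, array weights or K1Cre controls only, and was 0 to 1 without single mice. Features called higher and lower in males there were 142 and 168 in the main fit and 82 and 66 without a filter. Averaged probes gave 129 and 155, and array weights 62 and 88. By genotype in males the 1, Slc22a7, became 0 without a filter or with K1Cre controls only. Without a filter 301 features were called higher and 181 lower, beside 533 and 304 in the main fit. On leaving out single mice the call of Slc22a7 was kept only without NEKO 5. Without control 7 Slc22a8 was called instead, as higher, and without any other mouse none was called. The cause was not tested where none is named.

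Signs turned for 11 values, given with their range over the omission of each mouse. By genotype Slc22a2 ranged from -0.084 (without control 1, also the setting of K1Cre controls only) to 0.15 and was -0.017 without NEKO 2. By sex Slc22a7 ranged from -1.81 to 0.60 (without NEKO 6) and was 0.31 without NEKO 2. The interaction of Slc22a12 ranged from -0.46 to 0.20 (without control 4), and that of Slco1a6 from -0.59 to 0.12 (without control 4), with positive values also without NEKO 2 and NEKO 5. By sex within controls Slco4c1 ranged from -0.28 (without control 7) to 0.36 and was -0.14 without control 1 or with K1Cre controls only. By sex within NEKO mice Slc22a8 ranged from -0.11 (without NEKO 6) to 0.37 and was -0.13 with averaged probes, and Slco1a6 ranged from -0.062 (without NEKO 6) to 0.58 and was negative also without NEKO 3. In females Slc22a12 ranged from -0.19 to 0.018 (without control 1, also K1Cre controls only) and Slc47a1 from -0.0076 (without NEKO 3) to 0.18. In males Slc22a12 ranged from -0.55 to 0.12 (without control 4), and Slco4c1 from -0.20 (without control 4) to 0.44, negative also without NEKO 6. Of 1064 values of single transporters under alternatives, 1004 kept their direction and side of the threshold, 28 fell below it, 10 passed it and 22 turned. This tally does not measure robustness, because many alternatives leave a log2 value unchanged by construction. Leaving out a mouse outside a contrast is such a case, and K1Cre controls only repeats the run without control 1. Most values were also uncalled in the main fit. Where leaving out a mouse leaves 1 mouse of a sex and genotype, it is assumed to vary like the others. Medians of all features moved by less than 0.1 under each scaling.

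With 2 mice of each sex and genotype and sex bound to slide, the intervals of Slc22a7 span several doublings, and differences in males cannot be set apart from the 2 mice that carry them.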
